A study of Mus musculus with 6 samples.

Results

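Notch signalling genes were examined in mouse mesonephroi with and without a Wnt9b knockout, 10 in all: the ligands Jag1 and Jag2, the receptors Notch1, Notch2 and Notch3, the target genes Hes1, Hey1 and Heyl, and the modulators Lfng and Nrarp. They were chosen by symbol, and all 10 have a row in a table of 20033 genes. The libraries came from male embryos at E12.5. In 3 of them the titles give control, and in the other 3 they give Wnt9b knockout, which the series text describes as global and Wnt9b-/-. Controls are Wnt9b+/+ in the series text and heterozygous in the genotype field, a difference that could not be settled, so they are named only as controls. Whole mesonephroi were used, 1 embryo per library by the titles, and no litter, strain or batch is given. In such bulk tissue, fewer cells of a type and less RNA per cell cannot be told apart.

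Notch receptors are single-pass membrane proteins that bind Delta and Jagged ligands on a neighbouring cell. Binding leads to cleavage by an ADAM protease and then by gamma-secretase, and the freed intracellular domain enters the nucleus and activates genes with the DNA-binding protein RBPJ. Hes and Hey genes, which encode repressors, are the classic targets. In the developing nephron, Notch signalling, mainly through Notch2, is needed for proximal tubule and podocyte fates, and Jag1 is among the ligands made in the epithelium that forms nephrons. Elsewhere, Notch1 and Hey1 are known from blood vessel endothelium, and Notch3 and Heyl from the mural cells around vessels.

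Values are TPM, transcript abundances scaled to a common library sum, which account for gene length and library size, so levels of different genes can be compared. Recovered reads, which are lower bounds, numbered 27225433 to 31580900 in a library. Wnt9b (ENSMUSG00000018486) was at 24.9, 26.4 and 34.0 TPM in controls 1 to 3 and at 23.4, 19.2 and 19.0 TPM in knockouts 1 to 3. The groups did not overlap, but a log2 difference of -0.44 missed the threshold (limma adjusted p = 0.266); the authors' deposited table gives -0.45 with an adjusted p of 0.0263. Transcripts were still counted in every knockout, and the deleted part of the gene is not named in the labels. As a check of the tissue, the duct and nephron genes Pax2, Pax8 and Lhx1 had lowest values of 14.5, 16.3 and 7.42 TPM over the 6 libraries. Differences are given as log2(TPM + 1) of knockout minus control, with limma's moderated standard error and an adjusted p over 17577 tested genes. All 10 genes passed the filter on low values, which asked for 1 TPM or more in 3 or more libraries.

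Sequence upstream of the start site could be matched for 7 of the 10 genes in RefSeq's mouse promoter set (GRCm38.p6); Hes1, Hey1 and Heyl were not among them. Shown are Jag1, Notch1 and Notch2, whose levels were lower in the knockouts by the authors' deposited test, and Lfng, the 1 matched gene with the core motif of RBPJ in its window. The motif TGGGAA was searched on both strands in the 250 bases before the RefSeq start, and matches are in capitals. The lines run 5' to 3' on the gene's strand and end where the first annotated transcript begins. They cover chr2:137116645-137116770 on the minus strand for Jag1, chr2:26503825-26504072 on the minus strand for Notch1, chr3:98013288-98013526 on the plus strand for Notch2 and chr5:140607091-140607319 on the plus strand for Lfng.
Jag1: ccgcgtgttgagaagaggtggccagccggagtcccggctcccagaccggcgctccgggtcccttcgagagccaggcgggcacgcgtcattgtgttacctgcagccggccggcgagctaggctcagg
Notch1: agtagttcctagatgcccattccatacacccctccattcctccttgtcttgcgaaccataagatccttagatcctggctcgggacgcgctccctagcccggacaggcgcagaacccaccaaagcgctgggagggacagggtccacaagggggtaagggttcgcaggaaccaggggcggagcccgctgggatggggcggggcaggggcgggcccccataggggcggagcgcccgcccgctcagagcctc
Notch2: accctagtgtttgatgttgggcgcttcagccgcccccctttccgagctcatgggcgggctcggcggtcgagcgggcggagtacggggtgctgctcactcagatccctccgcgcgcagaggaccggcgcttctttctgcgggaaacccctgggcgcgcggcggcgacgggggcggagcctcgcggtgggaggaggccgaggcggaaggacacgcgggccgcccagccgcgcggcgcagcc
Lfng: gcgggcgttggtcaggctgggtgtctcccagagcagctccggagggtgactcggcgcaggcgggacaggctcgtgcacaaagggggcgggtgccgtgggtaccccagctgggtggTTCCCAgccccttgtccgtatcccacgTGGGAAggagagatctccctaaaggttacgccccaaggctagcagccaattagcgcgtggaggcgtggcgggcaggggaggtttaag

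Lfng held 2 matches, at positions -108 and -135 from the RefSeq start. The one at -108 is part of the longer form GTGGGAA, which contains TGGGAA. The other 6 matched genes, Nrarp among them, had no TGGGAA in these 250 bases. Over all 32851 promoter windows of that length, 21.6% held TGGGAA and 5.42% held GTGGGAA. The core CTTTGA of TCF/LEF factors, through which beta-catenin acts, was in none of the 7 windows and in 13.8% of all windows. A match is a run of letters and not a measured binding site, and these windows leave out distal elements.

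Of the 10 genes, 1 passed the genome-wide test (limma, adjusted p under 0.05), the ligand Jag1, and it was lower in the knockouts. Of all 17577 tested genes 0.444% passed, 0.313% lower and 0.131% higher. The other 9 did not pass; 3 of the 10 were lower and 1 was higher at an unadjusted p under 0.05, a level that 11.3% of all tested genes reached in either direction. The authors' deposited table marks 4 of the 10, Jag1, Notch1 and Notch2 as lower and Hey1 as higher, against 3.55% of the 18858 genes with an adjusted p there, 2.17% lower and 1.38% higher. The knockout and control values did not overlap for 4 genes that were lower (Jag1, Notch1, Notch2 and Lfng) and 1 that was higher (Hey1), while 16.6% of all tested genes separated in this way, 8.49% lower and 8.14% higher. The median log2 difference of the 10 genes was -0.077, beside -0.0075 over all tested genes.

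**Figure D1:**
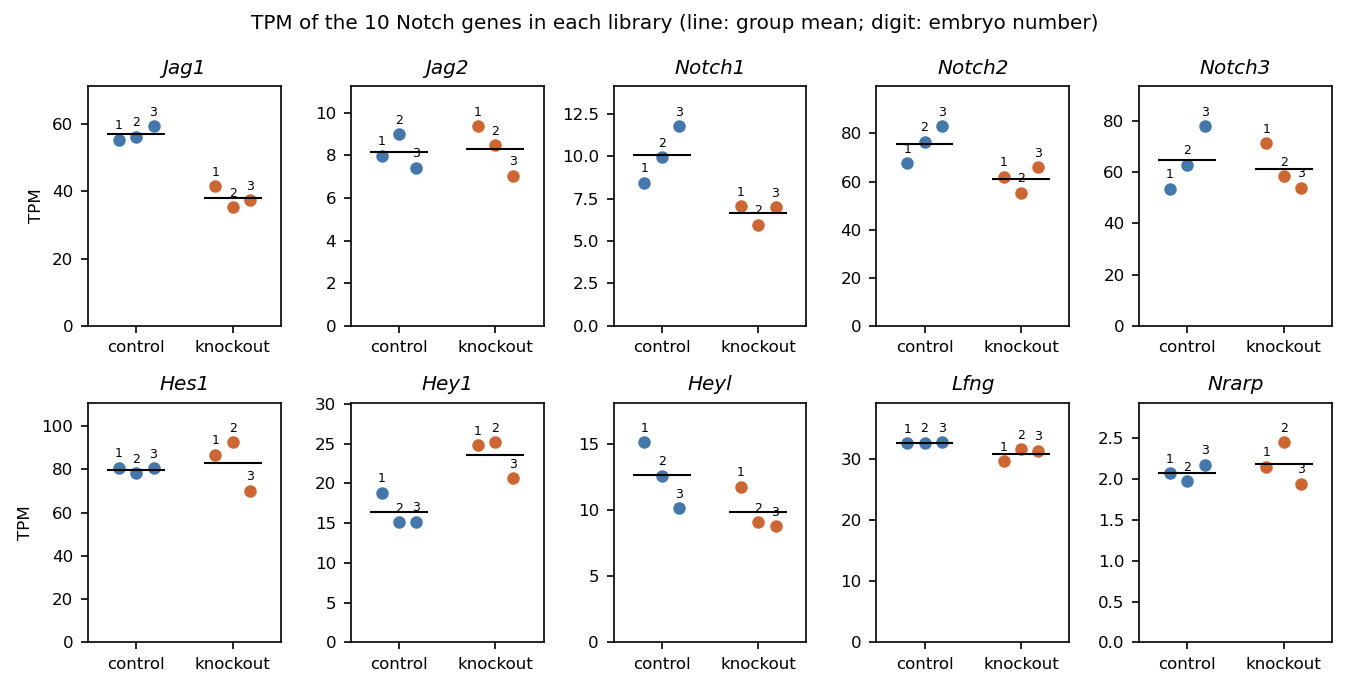
TPM (y axis, from 0) of each of the 10 genes in the 3 control and 3 knockout libraries, with 1 point per embryo, its number beside it and a line at the group mean. Jag1 lies between 55.4 and 59.5 TPM in controls and between 35.3 and 41.6 TPM in knockouts, Hey1 is higher in every knockout than in every control, and Hes1, Notch3, Jag2, Heyl and Nrarp overlap.

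Jag1 (ENSMUSG00000027276), a membrane ligand of the Jagged type, was at 55.4, 56.3 and 59.5 TPM in controls 1 to 3. In knockouts 1 to 3 it was at 41.6, 35.3 and 37.3 TPM. The lowest control exceeded the highest knockout by a wide margin against the spread inside each group, which was an SD of 2.16 TPM in controls and 3.22 TPM in knockouts. These values rest on 1728 to 3139 recovered reads per library. Jag1 fell to 0.668 of its control mean, a log2 difference of -0.57 (SE 0.083; 95% interval -0.76 to -0.38; limma adjusted p = 0.0325), and it ranked 57 of all tested genes by p. The authors' deposited table gives -0.57 with an adjusted p of 4.70e-08. The sign was the same in all 15 alternatives, but the adjusted p ran from 0.00291 to 0.163 over them. It was 0.0944, 0.163 and 0.161 without control 1, 2 and 3, 0.0534, 0.133 and 0.0409 without knockout 1, 2 and 3, and 0.112 with the embryo number as a block.

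Jag2 (ENSMUSG00000002799), the other Jagged ligand, was at 7.98, 9.0 and 7.43 TPM in controls, and the knockouts gave 9.38, 8.48 and 7.04 TPM. Its values overlapped, and the log2 difference was 0.021 (95% interval -0.32 to 0.36; limma adjusted p = 0.975), with a sign that turned without control 3 or without knockout 1. Of the Delta ligands, Dll4, known from vessel endothelium, gave 10.2, 9.55 and 8.06 TPM in the control libraries and 6.86, 9.86 and 8.77 TPM in the knockouts, again with overlap. Dll1, which acts in early nephron epithelium, had 4.17, 4.65 and 3.22 TPM in controls, all above the 2.65, 2.77 and 2.77 TPM of the knockouts. Its log2 difference of -0.42 (SE 0.18) missed the threshold (limma adjusted p = 0.437). Dll3 stayed at or under 1.07 TPM in every library, on 6 to 28 reads.

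Jag1 was the main ligand transcript in both groups. It made up 70.5%, 70.6% and 75.5% of the summed TPM of Jag1, Jag2, Dll1, Dll3 and Dll4 in controls 1 to 3, and 67.6%, 61.5% and 65.6% in knockouts 1 to 3. Every knockout share lay below every control share, a difference of -7.32 percentage points (exact permutation test, two-sided, p = 0.1, the smallest that 3 against 3 can give). The summed ligand level was 79.0 ± 0.639 TPM (SD, n = 3) for the controls against 58.7 ± 2.54 TPM for the knockouts, a difference of -20.4 TPM, and Jag1 alone differed by -18.9 TPM.

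**Figure D2:**
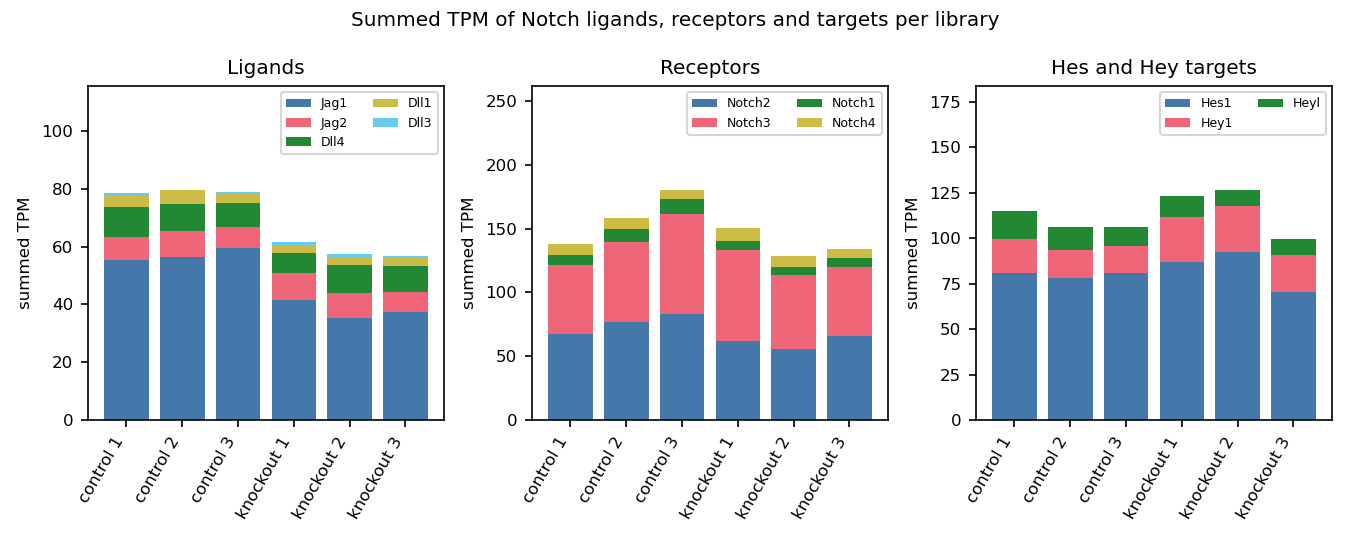
Stacked bars, from 0, of the summed TPM (y axis) of 5 ligands, 4 receptors and 3 Hes and Hey targets in each of the 6 libraries (x axis). The ligand bars stand at 78.5 to 79.7 TPM in controls and 56.9 to 61.6 TPM in knockouts, with most of the gap in the Jag1 segment, while the receptor and target bars overlap between the groups.

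Among the receptors, Notch1 (ENSMUSG00000026923) was at 8.44, 9.95 and 11.8 TPM in controls 1 to 3 and at 7.04, 5.95 and 6.99 TPM in knockouts 1 to 3. All knockouts lay below all controls, control 3 being the highest. The mean of the knockouts was 0.662 of that of the controls, close to the ratio of Jag1. With the wider spread, the log2 difference of -0.52 (SE 0.16; 95% interval -0.88 to -0.16) missed the threshold (limma adjusted p = 0.244; 0.0355 to 0.575 over the alternatives). It passed in limma-voom on the recovered reads, with a log2 difference of -0.57 and an adjusted p of 0.0355, and the authors' deposited table gives -0.58 with an adjusted p of 0.000349.

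Notch2 (ENSMUSG00000027878), the receptor tied to proximal tubule formation, was at 67.6, 76.5 and 83.1 TPM in controls. The knockouts had 62.1, 55.4 and 65.9 TPM. The groups did not overlap, but control 1 and knockout 3 differed by little. The log2 difference of -0.30 (SE 0.098; 95% interval -0.53 to -0.078) was short of the threshold (limma adjusted p = 0.279; 0.0962 to 0.618 over the alternatives). The authors' deposited table gives -0.30 with an adjusted p of 0.0184.

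Notch3 (ENSMUSG00000038146), the receptor of mural cells, was at 53.6, 62.9 and 78.0 TPM in controls. It reached 71.2, 58.4 and 53.9 TPM in knockouts 1 to 3. Its groups overlapped throughout, with a log2 difference of -0.076 (95% interval -0.42 to 0.26; limma adjusted p = 0.896) whose sign turned without control 3 or without knockout 3. Notch4, a receptor of endothelium, averaged 8.07 ± 0.644 TPM (SD, n = 3) among controls, with 8.65 ± 1.37 TPM among knockouts. Notch2 and Notch3 together supplied most receptor transcripts: Notch2 made up 47.9 ± 1.63% (SD, n = 3) of the TPM of the 4 receptors in controls and 44.5 ± 4.12% in knockouts, and Notch3 40.7 ± 2.26% and 44.3 ± 3.72%. The share of Notch1 was 6.14%, 6.29% and 6.53% in controls and 4.69%, 4.64% and 5.21% in knockouts, without overlap (exact permutation test, two-sided, p = 0.1, the smallest possible).

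Notch1, Notch2 and Notch3 are long transcripts, and levels varied with transcript length among these libraries. Length, read from the TPM worth of 1 read, put Notch1 at the 97.3th, Notch2 at the 93.0th, Notch3 at the 84.2th and Jag1 at the 69.5th percentile of those tested genes that averaged 5 TPM or more. The median log2 difference was -0.091 over the 638 longest genes, -0.047 over the 2552 next longest and 0.054 over the 3190 shortest. Of the 6 libraries, control 3 had the highest and knockout 2 the lowest median over the longest genes. The same 2 libraries were highest and lowest for Notch1, Notch2 and Jag1. With each library's trend on length removed, an alternative chosen after seeing the data, the log2 differences were -0.44 for Notch1, -0.24 for Notch2, -0.028 for Notch3 and -0.55 for Jag1 (limma adjusted p = 0.227, 0.212, 0.956 and 0.0252).

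Hes1 (ENSMUSG00000022528), a target of Notch that other pathways also drive, had the highest mean of the 10 genes. It was at 80.8, 78.2 and 80.6 TPM in controls 1 to 3 and at 86.8, 92.5 and 70.2 TPM in knockouts 1 to 3. The controls lay close together, and the knockouts spread on both sides of them, with knockout 3 below and the other two above. The log2 difference of 0.048 (95% interval -0.18 to 0.28) did not pass (limma adjusted p = 0.902), and its sign turned without knockout 2. The interval does not reach the decrease measured for Jag1.

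Hey1 (ENSMUSG00000040289), a repressor gene of the Hes and Hey family, went the other way from Jag1. It was at 18.8, 15.1 and 15.2 TPM in controls, against 24.8, 25.1 and 20.6 TPM for the knockouts, so that every knockout was higher than every control. The knockout mean was 1.44 times the control mean, and the log2 difference was 0.50 (SE 0.13; 95% interval 0.21 to 0.79). That is not past the threshold (limma adjusted p = 0.176; 0.0780 to 0.519 over the alternatives), whereas the authors' deposited table gives 0.53 with an adjusted p of 0.0213.

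Heyl (ENSMUSG00000032744), the family member known from mural cells, was at 15.1, 12.6 and 10.1 TPM in controls, and its knockout values were 11.7, 9.09 and 8.76 TPM. The highest control and the lowest knockout were far apart, but the groups overlapped, and the log2 difference of -0.32 (SE 0.17) did not pass (limma adjusted p = 0.564). Within the 3 targets, the share of Hey1 in their summed TPM was 15.0 ± 1.21% (SD, n = 3) in controls and 20.2 ± 0.446% in knockouts, and that of Heyl 11.5 ± 1.81% and 8.49 ± 1.2%. Neither share overlapped between the groups (exact permutation tests, two-sided, p = 0.1 each, the smallest possible). For Heyl the gap was narrow, 9.57% in control 3 against 9.52% in knockout 1. Shares of the same sum also depend on each other, so a higher Hey1 lowers the share of Heyl.

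Lfng (ENSMUSG00000029570), a glycosyltransferase that changes which ligands a Notch receptor answers to, was at 32.6, 32.7 and 32.8 TPM in controls, with 29.7, 31.7 and 31.5 TPM in the 3 knockouts. The controls were nearly identical, and the knockouts lay just below them. The difference was small, -0.079 on the log2 scale (95% interval -0.25 to 0.093; limma adjusted p = 0.762). Nrarp (ENSMUSG00000078202), a feedback inhibitor that Notch signalling induces, was at 2.07, 1.97 and 2.17 TPM in controls. Its knockout values, 2.15, 2.45 and 1.94 TPM, lay on both sides of these. The values rest on 42 to 53 reads per library, and the log2 difference was 0.047 (95% interval -0.37 to 0.46; limma adjusted p = 0.949).

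By mean level the 10 genes fell in the order Hes1 (79.9 TPM), Notch2 (75.7 TPM), Notch3 (64.8 TPM), Jag1 (57.0 TPM), Lfng (32.7 TPM), Hey1 (16.4 TPM), Heyl (12.6 TPM), Notch1 (10.1 TPM), Jag2 (8.14 TPM) and Nrarp (2.07 TPM) in controls. In their control values Hes1, Notch2 and Notch3 each overlapped with the next gene, as did Heyl with Notch1 and Notch1 with Jag2. In knockouts Jag1, at 38.1 TPM, overlapped with neither Notch2 nor Notch3, at 61.1 and 61.2 TPM, whereas in controls its values lay within the range of Notch3 and below that of Notch2. It lay nearer to Lfng, at 30.9 TPM, without overlap. Notch1, at 6.66 TPM, was below Jag2, at 8.30 TPM, in all 3 knockouts, and above it in all 3 controls.

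The ligand was then set against receptors and targets inside each library, as a log2 ratio that no scaling of libraries can move. Relative to the summed TPM of Notch1, Notch2 and Notch3, Jag1 stood at -1.23, -1.41 and -1.54 in controls 1 to 3 and at -1.75, -1.76 and -1.76 in knockouts 1 to 3. Relative to the summed TPM of Hes1, Hey1 and Heyl it stood at -1.05, -0.91 and -0.83 in controls and -1.57, -1.84 and -1.41 in knockouts. Neither ratio overlapped between groups, and the mean differences were -0.37 against the receptors and -0.68 against the targets (exact permutation tests, two-sided, p = 0.1 each, the smallest possible). Jag1 thus made up less of the transcripts beside both groups of genes in every knockout. Taken singly, 76.2% of all other tested genes also gave a lower Jag1 ratio without overlap, so this separation is not particular to these sums.

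Against single genes, with 1 TPM added to each, the ratio of Jag1 was lower without overlap for 7 of 9 partners. Of all other tested genes, 76.2% gave the same, so the share among the partners is that of genes at large. The difference was largest against Hey1, -1.07, from ratios of 1.51, 1.83 and 1.90 in controls and 0.73, 0.48 and 0.83 in knockouts. It was -0.62 against Hes1, -0.50 against Notch3 and -0.27 against Notch2 (exact permutation tests, two-sided, p = 0.1 each, adjusted p = 0.129 over 9 ratios). The partners whose ratio overlapped were Notch1, with -0.051 (adjusted p = 0.800), and Heyl, with -0.25 (adjusted p = 0.337). For Notch1 the ratio was 2.58, 2.39 and 2.24 in controls and 2.41, 2.39 and 2.26 in knockouts, and the knockout means of Jag1 and Notch1 stood at 0.668 and 0.662 of their control means.

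**Figure D3:**
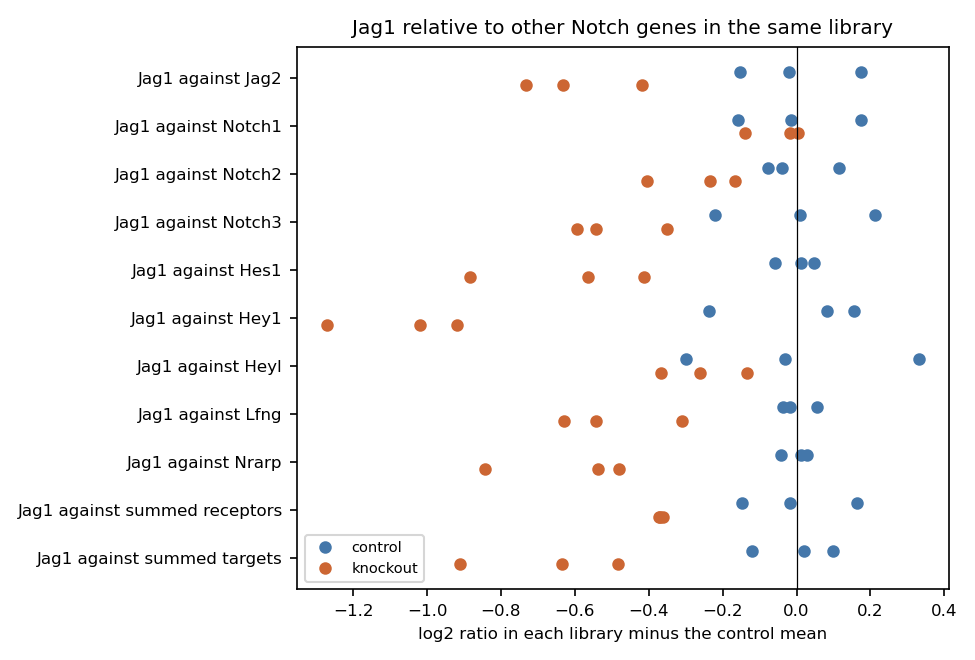
Log2 ratio of Jag1 to each partner in each library, minus the control mean (x axis), for 9 single genes and 2 sums (y axis), with blue points for controls and orange points for knockouts. The knockouts lie left of the controls for Hey1, Hes1, Notch3, Notch2, Jag2, Lfng, Nrarp and both sums, and among them for Notch1 and Heyl.

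A list of other pathway genes was examined in the same fit, 43 of which passed the filter. None of the 43 passed limma's genome-wide test (4 had an unadjusted p below 0.05, all lower; 0 in limma-voom on the recovered reads; 0 in the authors' deposited table). Their median log2 difference was -0.047. The 4 were Dll1, the fringe gene Mfng, the glucosyltransferase gene Poglut1 and the protease gene Adam10, and all 4 separated without overlap, as did Furin (lower) and Dll3 (higher). Of all tested genes, 11.3% reached that unadjusted p and 16.6% separated without overlap. Neither share among the 43 was above these when both directions were pooled. By direction, 5 of the 43 separated lower and 1 higher, beside 8.49% and 8.14% of all tested genes. Adam10, whose product makes the first cut in a bound receptor, averaged 149 ± 5.09 TPM (SD, n = 3) for controls against 129 ± 8.48 TPM for knockouts (log2 difference -0.21; limma adjusted p = 0.292). Mfng averaged 15.6 ± 0.422 TPM for controls against 12.2 ± 2.14 TPM for knockouts (limma adjusted p = 0.398), and Poglut1 at 63.7 ± 3.48 and 54.1 ± 5.48 TPM (limma adjusted p = 0.380).

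The remaining fringe gene, Rfng, had means of 42.4 ± 1.44 TPM (SD, n = 3) for controls and 44.9 ± 2.39 TPM for knockouts. For gamma-secretase, the complex of the second cut, Psenen had means of 118 TPM for controls and 119.9 TPM for knockouts, and its genes with the other proteases had a median of -0.044. The ubiquitin ligases that activate ligands by endocytosis were led by Mib1 (log2 difference -0.081) and Mib2 (-0.073). Rbpj, the DNA-binding partner of cleaved Notch, was at 29.4 ± 1.81 TPM for controls and 28.6 ± 1.91 TPM for knockouts (95% interval of the log2 difference -0.25 to 0.17), and among genes of its nuclear complex Hdac1 and Maml1 differed by 0.0092 and -0.010. Dtx3 and Numb, of the inhibitors and endocytic regulators, differed by -0.14 and 0.024. Other genes were listed with the targets, and whether Notch drives them in this tissue was not tested. Hes6 was at 41.6 ± 2.90 and 47.0 ± 7.74 TPM and Bhlhe40 at 21.5 ± 1.30 and 20.8 ± 0.537 TPM. Hey2, of the Hey family, was at 7.94 ± 1.35 TPM for controls and 7.23 ± 0.317 TPM for knockouts. Dlk1, a membrane protein related to the ligands, varied more among knockouts, at 535 ± 68.9 TPM, than among controls, at 583 ± 13.2 TPM. Hes5 has no row under that symbol among the 20033 genes, so it was not analysed here.

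**Figure D4:**
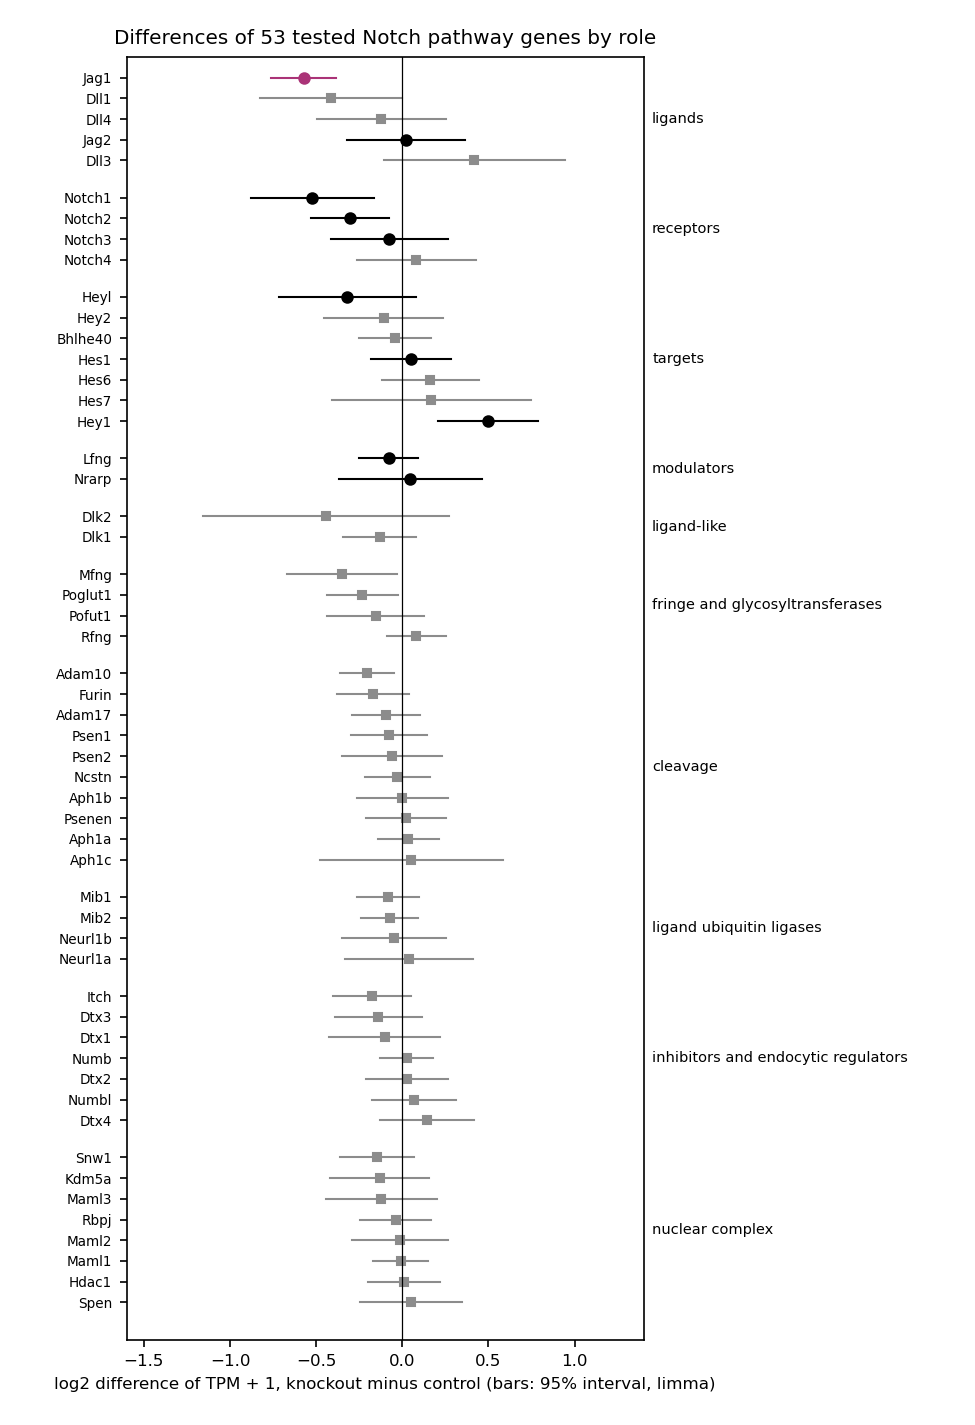
Log2 difference of TPM + 1, knockout minus control (x axis), with its 95% interval from limma for the 53 tested pathway genes by role (y axis). Circles are the 10 genes and squares the others; Jag1, in purple, at -0.57, is the only gene past the test over all genes, Notch1 and Notch2 lie left of 0 and Hey1 right of it with intervals that leave out 0.

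Markers of the cell types that these genes are known from, and of other cell types, were read in the same fit. Their part in the results was not tested. Among all tested genes, 0.313% passed limma's test lower and 0.131% higher. Of 10 tested markers of mesonephric tubule and nephron epithelium, where Jag1 is known to be made, 2 passed the test, both lower, Lhx1 and Irx1. All 10 had negative log2 differences, spread from -1.37 to -0.048 with a median of -0.56, beside -0.57 for Jag1. Over all tested genes, 51.8% were negative. The summed TPM of the list ran from 201 to 213 in controls and from 151 to 177 in knockouts. Of 4 tested podocyte markers, another fate tied to Notch2, 0 passed, with 3 positive, 1 negative and a median of 0.15. Of 11 duct epithelium markers 1 passed, Calb1, which was lower. The list went both ways, 6 negative and 5 positive with a median of -0.092, and its sum ran from 878 to 923 TPM in controls and from 752 to 832 TPM in knockouts. No marker of these lists was at 0 in all libraries.

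Of 14 endothelial markers, beside which Notch1, Notch4, Dll4 and Hey1 can be read, 0 passed in limma (5 had an unadjusted p below 0.05, all lower; 3 lower in the authors' deposited table). Among all tested genes, 11.3% reached that unadjusted p in either direction. The authors' deposited table marks 2.17% of its genes with an adjusted p as lower and 1.38% as higher. The median of the 14 markers was -0.24, 13 of 14 were negative, and the sum ran from 770 to 820 TPM in controls and from 673 to 732 TPM in knockouts. Notch1, at -0.52, and Dll4, at -0.12, differed in the same direction as most of these markers. Hey1, at 0.50, and Notch4, at 0.081, differed in the opposite direction. The values of Dll4 and Notch4 overlapped between the groups. Of 8 tested markers of pericytes and smooth muscle, beside Notch3 and Heyl, 0 passed limma (2 at an unadjusted p under 0.05, both higher; 2 higher in the authors' deposited table). Their median was 0.15, and their sum was 215 to 224 TPM in controls and 227 to 282 TPM in knockouts. Pdgfrb, a receptor of mural cells and of mesenchyme at large, was 1 of 2 mesenchyme markers of 7 that passed, lower, and Tcf21 was the other, higher.

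The gonad lies against the mesonephros, and of 9 tested markers of its supporting cells 3 passed, all higher (Nr5a1, Gata4 and Lhx9). Among all tested genes, 0.131% passed higher. The log2 difference of the 9 markers was positive for 8 and negative for 1, with a median of 0.76 and a sum of 322 to 332 TPM in controls and 379 to 474 TPM in knockouts. Of 3 tested steroidogenic markers 0 passed in limma (1 had an unadjusted p below 0.05, which was higher; 1 in the authors' deposited table), with a sum of 26.7 to 33.2 TPM in controls and 31.2 to 41.4 TPM in knockouts. Positive log2 differences were also the more frequent in the neural (7 of 7, median 0.89), germ cell (6 of 7, median 0.66) and erythroid lists (7 of 7, median 0.19), with 0 genes past the test in limma (2 neural and 1 erythroid had an unadjusted p below 0.05, all higher; 2 neural are higher in the authors' deposited table). Among all tested genes, 11.3% reached that unadjusted p in either direction, and the authors' deposited table marks 1.38% of its genes with an adjusted p as higher. The sums of the steroidogenic, podocyte, germ cell, macrophage, erythroid and neural lists overlapped between the groups. Which cells the transcripts of Hey1 came from was not tested.

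**Figure D5:**
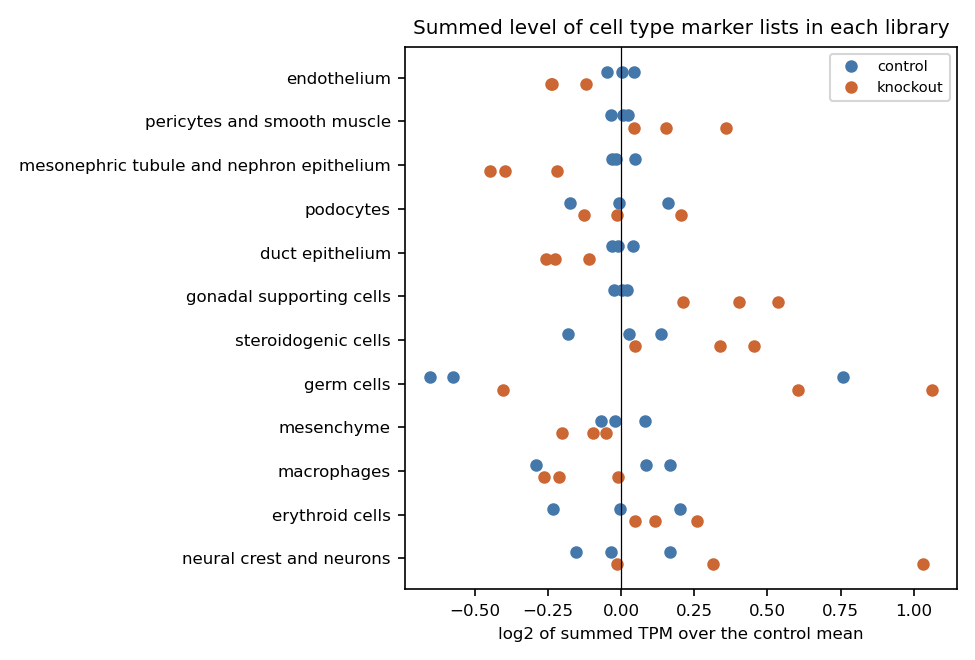
Log2 of the summed TPM of each marker list in each library over the control mean (x axis) for 12 cell type lists (y axis), with blue points for controls and orange points for knockouts. The tubule, duct and endothelial sums are lower in every knockout than in every control. The sums of the gonadal supporting cell list and of the pericyte and smooth muscle list are higher.

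The genes whose levels over the 6 libraries were most like Jag1 were Hook2, Pde3b, Ice2, Rasgrp4 and Pcdhb20, with Pearson r of log2(TPM + 1) from 0.990 to 0.993 among 12768 genes of at least 5 TPM on average. The 6 points fall in the 2 groups, so r includes the gap between them, and it is given as a description. None of these 5 genes passed in limma (adjusted p from 0.124 to 0.495), and their log2 differences ran from -0.62 for Pcdhb20 to -0.20 for Pde3b. Of the 8 other Notch genes above that level, which leaves out Nrarp, Notch1 was most like Jag1, with r = 0.932 and rank 177, and Hey1 the least, with r = -0.871.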

How the data were processed

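Libraries of poly(A) RNA from 6 male mesonephroi were read from both ends (150 bases each), per the labels' protocols. GRCm39 and DESeq2 are named in the submitters' processing notes without a role. Aligner, counting tool, strand setting and annotation: not given in the sources used here. In TPM, the authors deposited 1 column per library, each summing to 1000000 over 20033 genes, and the authors deposited their own comparison, a log2 fold change with a p-value and an adjusted p-value, the last empty for 1175 genes. These are quoted only as the authors'.

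Samples were grouped by title. Values of log2(TPM + 1), a scale that understates changes of low genes, were fitted in limma 3.58.1 (R 4.3.3) with a trended prior and a single term for genotype. Genes needed 1 TPM or more in 3 or more libraries, with Benjamini-Hochberg adjustment over 17577 genes at a threshold of 0.05. The limma p-values set the difference between groups against the spread of libraries within groups, moderated by that prior, and rest on these 6 libraries. Shares and ratios were compared by exact permutation tests, whose p-values rest on the reassignments of the 6 libraries to the groups. TPM values of a gene are whole multiples of 1 read's worth. For 20022 genes they came out whole within 0.02 reads in all libraries. In a check on 1000 genes 99.8% came out whole, and 0.1% after random changes. A factor common to a gene's 6 counts is lost, so reads are lower bounds. Libraries were not identical in any pair. The limma fit was also run on simulated counts with set changes.

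The 10 genes and the gene lists were chosen with earlier results of these data known. Named were the 10 genes, pathway genes past the test and the 2 of highest level in each role, up to 3 markers past the test per list, and the 5 genes most like Jag1. Mfng, Furin, Dll3, Rbpj, Dner and Hey2 fall outside that rule and were named after their values were seen. The targeted gene Wnt9b, and Pax2 and Pax8, named as a check of the tissue, also fall outside it. Alternatives were other pseudocounts, filters and scalings, voom, a replicate block, omission of each library and removal of a length trend. Promoter sequences are RefSeq's on GRCm38.p6, another build than the authors', and no measured value is tied to them.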

Additional observations from a re-analysis of the deposited data

How the results depend on the processing

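Each of the 10 genes was refitted under 15 alternatives (14 for Nrarp, which a filter of 5 TPM removed). Jag1, Notch1, Notch2, Hey1, Heyl and Lfng kept their sign in all of them. The count of all genes past the test, 78 as reported, was 292 in limma-voom on the recovered reads and 17 with the replicate block, and ran from 13 to 242 when 1 library was left out, the highest without knockout 3. Of the 10 genes, 2 passed in voom (Jag1 and Notch1), 0 with the replicate block, and 0 to 1 when 1 library was left out. The log2 difference of Jag1 was -0.57 with the replicate block, where it did not pass, and ran from -0.64 to -0.52 over the omissions, passing only without knockout 3. That of Notch1 was -0.57 in voom. Over the omissions, values ran from -0.062 to 0.12 for Jag2, -0.20 to 0.064 for Notch3, -0.032 to 0.16 for Hes1 and -0.013 to 0.10 for Nrarp, and the ratio of Jag1 to Notch1 from -0.13 to 0.037; the cause was not tested. The ratios of Jag1 to summed receptors and targets and its share of ligands kept their sign in every omission. Same-numbered embryos did not deviate together (r of -0.064, 0.050 and -0.051 for numbers 1 to 3), so the numbers are not taken as pairs. None of the 43 other pathway genes passed in any alternative. Nrarp and Dll3 rest on few reads, 42 to 53 and 6 to 28 per library.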

Other observations

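Among pathway genes near the filter, single libraries stood apart. Dlk2, a membrane protein related to Notch ligands, was at 1.26, 1.09 and 1.42 TPM in controls and at 0.103, 0.676 and 1.47 TPM in knockouts 1 to 3, on 2, 12 and 26 reads in the knockouts. Dner, a neural membrane protein that can bind Notch, was under the filter and ran from 0.261 to 1.5 TPM in controls and from 0.0998 to 2.14 TPM in knockouts, on 4 to 86 reads. Neither gene separated the groups.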
